A study of Homo sapiens with 2 samples.

Results

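The HOX genes of U87MG, an established human glioblastoma cell line, were described together with the microRNAs (miRNAs) that lie in their clusters. Genes were taken by symbol: HOXA, HOXB, HOXC or HOXD followed by a number, HOX antisense RNAs whose symbol ends in -AS and a digit, HOTAIR and HOTTIP. miRNAs were taken by name: every arm of miR-10a, miR-10b, miR-196a, miR-196b and miR-615. This gave 35 of 21445 listed gene rows (27 coding and 8 antisense) and 7 of 1224 listed mature miRNAs. The cells were untreated and grew in MEM with 10% FBS and 1% penicillin-streptomycin. One small RNA library (RNA integrity number 8.7) and one mRNA library (9.3) were sequenced, each from a single sample of the line. There was no second sample, no normal brain cell and no other control, so every value below is a level in 1 library with no spread between samples and no test. Gene levels are FPKM (fragments scaled for gene length and library size), and miRNA levels are raw read counts.

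HOX genes encode homeodomain transcription factors that lie in 4 clusters, HOXA on chromosome 7, HOXB on 17, HOXC on 12 and HOXD on 2. In the embryo the genes of a cluster are switched on in their chromosomal order, and paralogue groups 1 to 13 pattern the body from hindbrain to tail. The forebrain, where most glioblastomas arise, and the midbrain normally express few or no HOX genes, whereas expression of several of them has been reported in glioblastoma. The miR-10 hairpins lie near the group 4 genes and the miR-196 hairpins near the group 9 genes, and miR-196 is known to cut the HOXB8 transcript.

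The sequences below show how the cluster miRNAs relate to each other. Capitals mark the seed, bases 2 to 8, which pairs with target transcripts. Sequences and positions are from RefSeq on GRCh38.p14, which held 6 of the 7 listed miRNAs, each with the same sequence as in the deposited file. miR-10a-5p lies at chr17:48579904-48579926 on the minus strand, and its 3p arm at chr17:48579864-48579885. miR-10b-3p lies at chr2:176150368-176150389 on the plus strand. miR-196b-5p lies at chr7:27169528-27169549 on the minus strand. miR-196a-5p is made from a pair of hairpins, at chr17:48632532-48632553 (minus) and chr12:53991762-53991783 (plus), and reads of its 5p arm cannot be divided between them. miR-615-5p lies at chr12:54033967-54033988 on the plus strand.
miR-10a-5p: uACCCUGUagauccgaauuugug
miR-10a-3p: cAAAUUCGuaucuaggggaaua
miR-10b-3p: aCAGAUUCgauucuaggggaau
miR-196a-5p: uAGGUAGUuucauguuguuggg
miR-196b-5p: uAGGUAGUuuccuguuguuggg
miR-615-5p: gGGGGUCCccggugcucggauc

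miR-10a-5p and miR-10b-5p shared the seed ACCCUGU, which no other listed miRNA had, and differed at 1 of 23 bases. miR-196a-5p and miR-196b-5p shared the seed AGGUAGU, also found in no other listed miRNA, and differed at 1 of 22 bases, A12C (miR-196a base first, counted from the 5′ end). How reads were divided between such near-identical sequences is not given in the sources used here, so the split within each pair is uncertain. The letters of the miR-196 seed also stood at bases 3 to 9 in 8 listed miRNAs of the let-7 family, 1 base further in than in miR-196. The hairpin of miR-10a, at chr17:48579838-48579947 on the minus strand, shows both arms in capitals, with the 5p arm first.
miR-10a hairpin: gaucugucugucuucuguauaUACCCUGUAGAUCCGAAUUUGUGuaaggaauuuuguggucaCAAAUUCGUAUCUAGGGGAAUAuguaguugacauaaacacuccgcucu

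Of the cluster miRNAs, miR-10 was abundant, and miR-196 and miR-615 had far fewer reads. miR-10b-5p, widely studied as a promoter of invasion in cancer cells and raised in glioma, had 58845 reads, or 0.499% of the 11785001 miRNA reads (exact Clopper-Pearson 95% interval 0.495 to 0.503%). It was at rank 20 of the 1224 listed miRNAs. miR-10a-5p had 16799 reads (0.143%, interval 0.140 to 0.145%) at rank 46. miR-10b-5p had 3.503 times the reads of miR-10a-5p (interval 3.44 to 3.56). The intervals cover counting error only, as there is 1 library. The read counts used here hold no molecular identifiers, so copies made by amplification cannot be told apart. Read counts of different miRNAs also depend on how well each ligates, which was not measured here.

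The 3p arms of miR-10 had far fewer reads than the 5p arms. miR-10b-3p had 415 reads at rank 209 and miR-10a-3p had 214 at rank 254. The 5p arm therefore held 99.3% of the miR-10b reads (interval 99.2 to 99.4%) and 98.7% of the miR-10a reads (98.6 to 98.9%). The 3p share was 0.700% in miR-10b (0.635 to 0.771%) and 1.26% in miR-10a (1.10 to 1.44%). The ratio of miR-10b to miR-10a was 1.94 on the 3p arm (1.64 to 2.30), lower than on the 5p arm. Both contrasts depend on how reads were divided between the near-identical 5p sequences, which is not known. The intervals cover counting error in 1 library and are no test of a difference between the hairpins.

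The miR-196 and miR-615 rows had under 100 reads each, beside a median of 10 reads over all listed miRNAs. miR-196b-5p had 84 reads at rank 342. miR-196a-5p had 12 reads at rank 573, so miR-196b-5p had 7 times as many (interval 3.804 to 14.09). miR-615-5p had 6 reads at rank 700. No row was found for the 3p arms of miR-196a, miR-196b and miR-615. miR-10b-5p had 701 times the reads of miR-196b-5p (interval 566 to 878). With 10 reads as the minimum, 6 of the 7 rows passed, against 51.6% of all listed miRNAs.

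**Figure D1:**
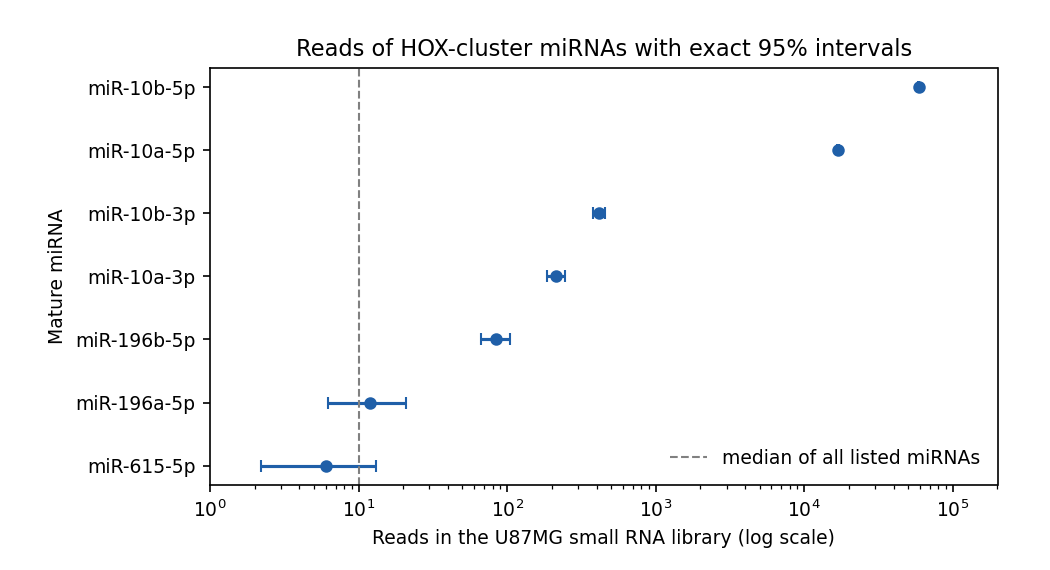
Reads of the 7 cluster miRNAs in the U87MG small RNA library on a log axis. Points are read counts, bars are exact 95% intervals of counting error, and the dashed line is the median of all listed miRNAs, 10 reads. miR-10b-5p and miR-10a-5p lie far to the right with 58845 and 16799 reads, and miR-196a-5p and miR-615-5p have intervals that span the median.

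Together the 7 rows held 76375 reads, 0.648% of the miRNA reads (0.643 to 0.653%), and miR-10 made up 99.9% of these. The miR-10 family in the wider sense also holds miR-99, miR-100 and miR-125, which lie outside the HOX clusters. Of these, miR-100-5p had 430317 reads, miR-125a-5p 59154, miR-99a-5p 57734, miR-99b-5p 56671 and miR-125b-5p 37783. miR-10b-5p was thus close to miR-125a-5p, miR-99a-5p and miR-99b-5p, and miR-10a-5p was below all the 5p arms named here.

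HOX coding genes were mostly low in the mRNA library, and the 3 highest belonged to HOXD. Of the 39 HOX coding genes, 26 had a row and 13 had none. An FPKM of 1 was reached by 10 of the 26, whereas 64.6% of all listed genes and 77.5% of listed coding genes reached it. The median HOX row was at 0.610 FPKM, against 2.96 for all listed genes and 7.82 for listed coding genes. On the log2(FPKM + 1) scale these medians were 0.69, 1.98 and 3.14. HOXD8, a central HOX factor, was the only HOX gene above the coding median. In bulk RNA, a low level in every cell and a higher level in few cells cannot be told apart.

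The values ran from 8.83 FPKM for HOXD8 to 0.0379 for HOXA3, a 233-fold range. The 3 highest genes, HOXD8, HOXD11 and HOXD10, held 50.9% of the HOX sum. A missing row is not read here as a lack of RNA, since PGK1 and TUBB, genes that all cells use, also had none. Coding genes held 10.6% of the FPKM sum of this library. With values rescaled so that coding genes alone make up the total, a factor of 2.67, 17 HOX genes reached 1, against 85.1% of listed coding genes and 79.2% of all listed genes.

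**Figure D2:**
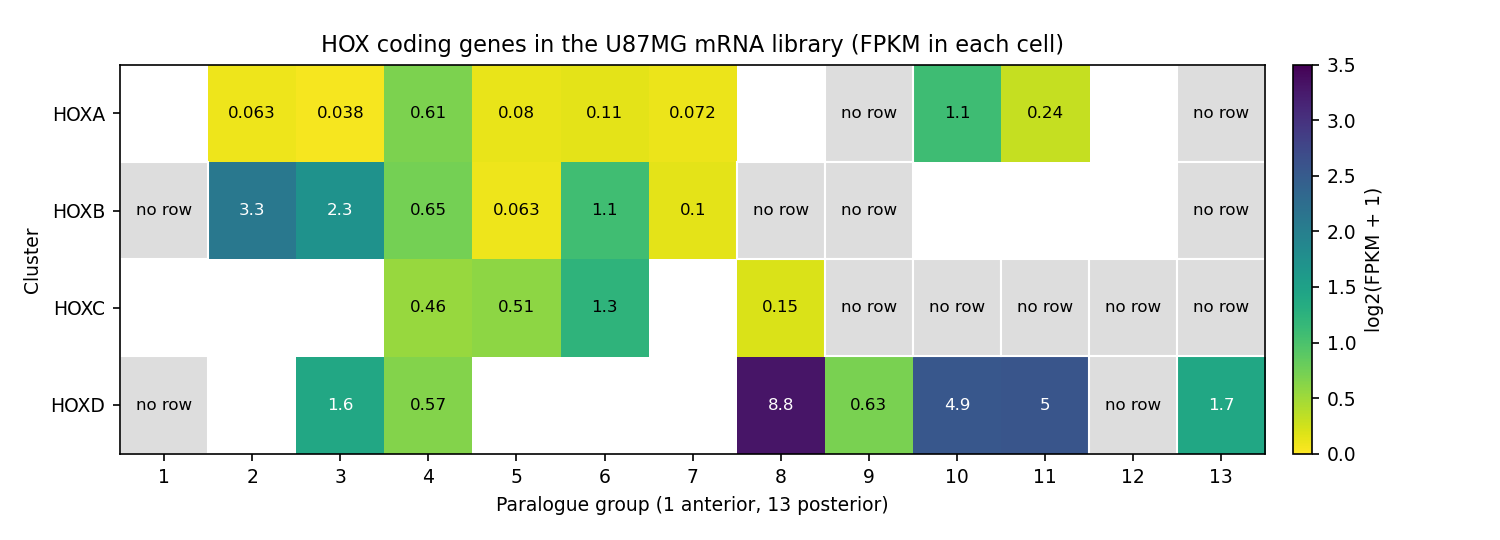
HOX coding genes of the U87MG mRNA library, with clusters down the side and paralogue groups 1 to 13 across. Each coloured cell gives the FPKM and its colour log2(FPKM + 1), grey cells had no row, and blank cells have no human gene or are not reported. For HOXC4 the higher of its 2 rows is shown. The darkest cells are HOXD8, HOXD10 and HOXD11, and most of the posterior groups of HOXB and HOXC are grey.

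The HOXD cluster held 63.2% of the HOX FPKM sum. Of its 9 genes 7 had a row and 5 reached 1 FPKM, beside 77.5% of listed coding genes. HOXD8 (ENSG00000175879) was at 8.83 FPKM, rank 6739 of the 14376 listed coding genes, so that 53.1% of them were lower. The posterior genes HOXD11 and HOXD10, which pattern the limb and the lower trunk, followed with 4.96 and 4.85. HOXD13, the most posterior gene of the cluster and a regulator of digit formation, was at 1.66, and HOXD3 was at 1.65.

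Levels in HOXD did not fall or rise steadily along the chromosome. HOXD9 was at 0.631 FPKM although it lies between HOXD10 and HOXD8, which were 7.69 and 14.01 times as high. HOXD4, on the other side of HOXD8, was at 0.573, and HOXD8 was 15.4 times as high. HOXD12 and HOXD1 had no row. HOXD11 and HOXD10, at nearly the same level, are neighbours.

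The HOXB cluster came second, with 20.5% of the HOX sum, and its levels were highest at the anterior end. HOXB2 and HOXB3, which act in the hindbrain, were at 3.30 and 2.30 FPKM. HOXB4, a factor of blood stem cells, was at 0.653, HOXB5 at 0.0634, HOXB6 at 1.10 and HOXB7 at 0.101. HOXB2 was 52.1 times as high as HOXB5. HOXB6 was the exception to the decline, standing above both of its neighbours. The span of HOXB3 in RefSeq takes in HOXB4, so fragments could be divided between them and their separate values are uncertain. HOXB1 and the more posterior HOXB8, HOXB9 and HOXB13 had no row, so 6 of the 10 genes were listed. Of these, 3 reached 1 FPKM, beside 77.5% of listed coding genes.

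The HOXC and HOXA clusters each had 1 gene at 1 FPKM or more, of 4 and 9 with a row, beside 77.5% of listed coding genes. HOXC held 7.83% of the HOX sum. HOXC6 was at 1.33 FPKM, HOXC5 at 0.510 and HOXC8 at 0.147. HOXC4 had a pair of rows, at 0.460 (ENSG00000198353) and 0.419 (ENSG00000273266). HOXC4, HOXC5 and HOXC6 share part of their span in RefSeq, so fragments could be divided between them and their separate values are uncertain. HOXC9 to HOXC13, the 5 posterior genes, all had no row.

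HOXA held 8.45% of the HOX sum although it had the most genes with a row, 9 of 11. HOXA10, which acts in the uterus and in blood cells and has been studied in glioblastoma, was at 1.12 FPKM. HOXA4 was at 0.610. HOXA11 was at 0.241, and HOXA10 was 4.63 times as high. HOXA6 (0.105), HOXA5 (0.0804), HOXA7 (0.0724), HOXA2 (0.0626) and HOXA3 (0.0379) were lower still. The span of HOXA3 in RefSeq takes in HOXA4, so their separate values are also uncertain. HOXA9, often studied in glioblastoma and leukaemia, and HOXA13 had no row.

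By position along the body axis, central genes (groups 4 to 8) held 41.1% of the HOX sum, posterior genes (groups 9 to 13) 36.7% and anterior genes (groups 1 to 3) 22.2%. Central genes were nearly all listed, 14 of 15, but 3 reached 1 FPKM. Posterior genes were listed in 6 of 16, and 4 of those 6 reached 1 FPKM, of which 3 were in HOXD. Anterior genes were listed in 6 of 8, with 3 at 1 FPKM or more. Of all listed coding genes 77.5% reached 1 FPKM, and each part holds few rows. The central share depends on HOXD8: without it, central genes held 22.4%, posterior genes 48.4% and anterior genes 29.2%. The same gene did not decide the order of clusters, as HOXD held 51.5% without it and HOXB 27.04%.

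**Figure D3:**
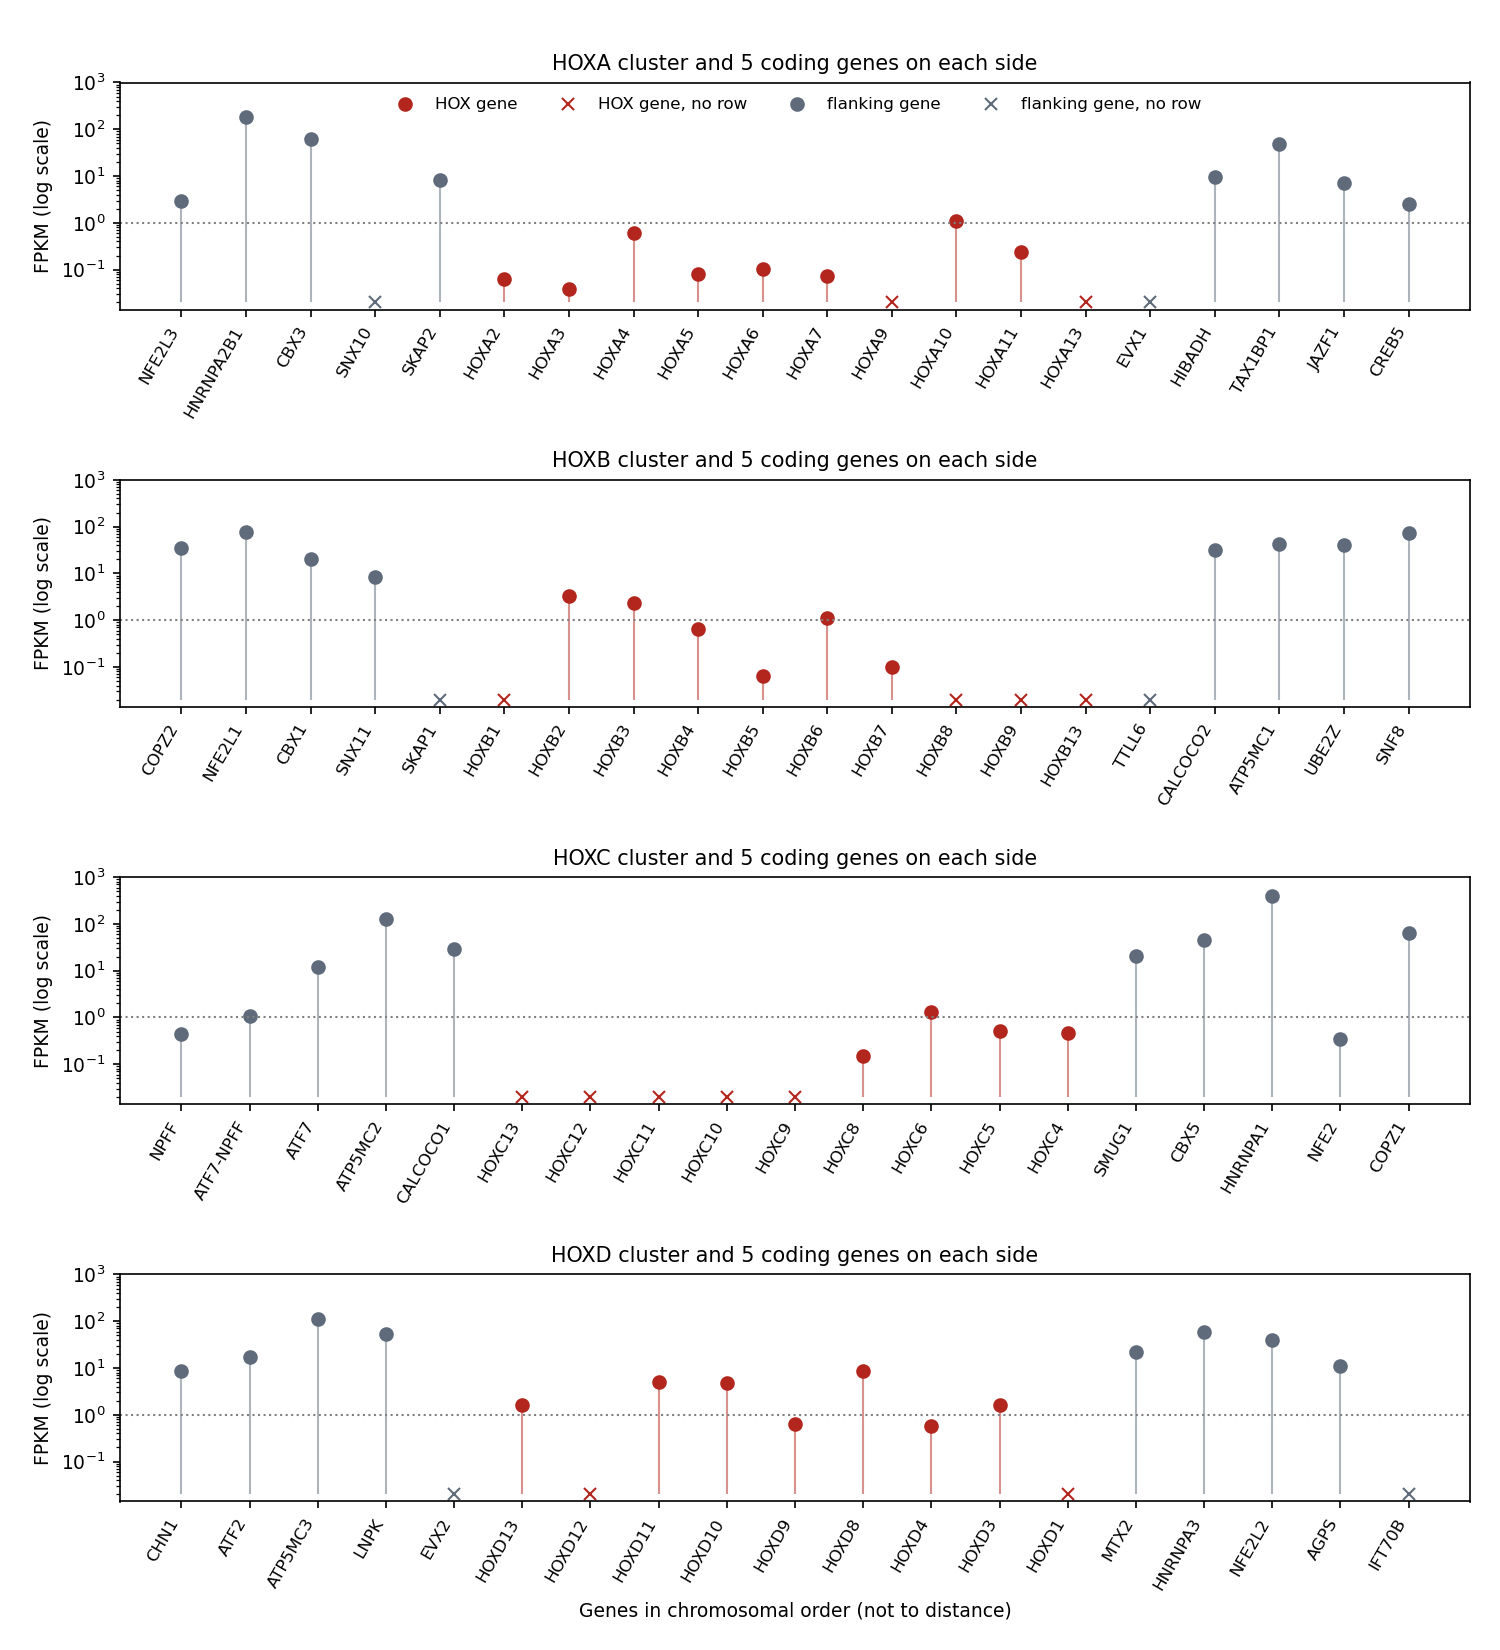
FPKM on a log axis for the genes of each HOX cluster (red, 1 gene not reported left out) and the 5 nearest coding genes on each side (grey) in chromosomal order. Dots are listed genes, crosses genes with no row drawn at the foot of the axis, and the dotted line is 1 FPKM. Of the 34 listed flanking genes, 30 stand above every HOX gene of their cluster.

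The coding genes on both sides of the clusters were mostly far higher than the HOX genes. Of 40 flanking genes 34 had a row, with a median of 30.4 FPKM, and 32 (94.1% of those with a row) reached 1 FPKM, beside 77.5% of listed coding genes. Of the 34, 30 were higher than every HOX gene of their cluster. The highest were HNRNPA1 (397 FPKM) beside HOXC, HNRNPA2B1 (187) beside HOXA, and the mitochondrial ATP synthase genes ATP5MC2 (129) beside HOXC and ATP5MC3 (111) beside HOXD. The lowest with a row were NFE2 (0.351) and NPFF (0.441), both beside HOXC. EVX1 and EVX2, homeobox genes at the posterior ends of HOXA and HOXD, had no row, nor did SNX10, SKAP1, TTLL6 and IFT70B. The median of listed flanking genes was 8.89 FPKM for HOXA, 38.4 for HOXB, 25.1 for HOXC and 30.6 for HOXD, so the order of the flanks was not that of the clusters.

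Of the 8 HOX antisense RNAs with a row, 2 (25%) reached 1 FPKM, beside 34.6% of the listed antisense genes, and with 8 rows the gap is 1 gene or less. HOXD-AS1, now named HAGLR, was highest at 1.85 FPKM and HOXD-AS2 followed at 1.31. HOXB-AS1 was at 0.793 and HOXC-AS1 at 0.354. HOXB-AS3, HOXB-AS2, HOXA-AS2 and HOXA-AS3 lay between 0.228 and 0.149. Among these 8 rows, as among the coding genes, the HOXD cluster held the highest values. HOTAIRM1 in the HOXA cluster, which the naming rule left out, was higher at 7.79 FPKM.

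HOTAIR, the HOXC transcript studied for its ties to Polycomb, and HOTTIP, at the posterior end of HOXA, had no row. Of the other RNAs of the clusters that the naming rule left out, HOTAIRM1, at the anterior end of HOXA, was at 7.79 FPKM. It stood above every HOX coding gene but HOXD8, and its neighbour HOXA2 was at 0.0626. FPKM depends on gene length, which was given for only 101 of the 7069 listed non-coding rows, so this ranking is uncertain. HOXA11-AS was at 0.244, close to HOXA11 at 0.241. Whether counting used the strand is not given in the sources used here. If it did not, fragments from the overlap of an antisense RNA and a coding gene cannot be told apart. Such overlaps in RefSeq include HAGLR with HOXD1, HOXB-AS1 with HOXB2 and HOXB3, and HOXA-AS3 with HOXA3, HOXA5, HOXA6 and HOXA7.

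The hairpins of miR-10 had listed HOX genes on both sides, and those of miR-196a had none. miR-10b lies between HOXD8 (8.83 FPKM) and HOXD4 (0.573). miR-10a lies between HOXB4 (0.653) and HOXB5 (0.0634), inside the long span of HOXB3 (2.30). miR-196b lies between HOXA10 (1.12) and HOXA9, which had no row. Both miR-196a hairpins have neighbours with no row, HOXB9 and HOXB13 for the copy on chromosome 17 and HOXC9 and HOXC10 for that on chromosome 12. miR-615 lies inside the spans of HOXC4 (0.460) and HOXC5 (0.510), next to HOXC6 (1.33). With these few hairpins no relation between miRNA and neighbour was computed, and reads and FPKM come from different libraries.

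HOX proteins bind DNA with TALE homeodomain partners, and the median of these partner genes was above that of the HOX genes (0.610 FPKM). Of 9, 8 had a row and 6 of these (75%) reached 1 FPKM, near the 77.5% of listed coding genes. Their median of 5.04 FPKM was below the coding median of 7.82. PBX3 was at 41.3 FPKM, MEIS3 at 31.5, MEIS2 at 16.3 and PKNOX1 at 6.54. MEIS1, the partner best known from leukaemia, was at 3.54 and PBX4 at 1.10. PKNOX2 was below 1 FPKM at 0.0805, and PBX2 had no row.

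Polycomb genes, which keep HOX clusters silent in part through histone H3K27 methylation, were mostly above 1 FPKM. So were Trithorax and related genes, whose enzymes favour HOX expression. Of 27 Polycomb genes 25 had a row and 24 of these (96%) reached 1 FPKM, beside 77.5% of listed coding genes. The Polycomb median was 10.7 FPKM, beside 7.82. RBBP4 (83.1), PHC2 (82.9), RBBP7 (49.3) and PCGF5 (22.9) were highest. Of the H3K27 methyltransferase complex, EZH2 was at 11.3, SUZ12 at 16.9 and EED at 8.76. CBX8 (1.26) and PHF1 (0.192) were lowest, and RING1 and CBX2 had no row.

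Of 13 Trithorax, H3K27 demethylase and related genes 12 (92.3%) reached 1 FPKM, beside 77.5% of listed coding genes. Their median of 8.20 FPKM was near the coding median of 7.82. KMT2C (22.8), KMT2D (20.5), DOT1L (18.5) and WDR5 (17.2) were highest. KMT2A, the methyltransferase whose fusions raise HOXA genes in leukaemia, was at 2.03, next to lowest, and HCFC1 was at 0.889. The H3K27 demethylases KDM6A and KDM6B were at 13.3 and 3.52. These levels are RNA in 1 library and give no measure of histone marks at the clusters.

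Retinoic acid induces anterior HOX genes, and the genes that make, carry and sense it were either well above 1 FPKM or had no row. Of 17 retinoid and CDX genes 8 had a row, all at 3.34 FPKM or more, beside 77.5% of listed coding genes at 1 FPKM or more. ALDH1A3, which makes retinoic acid and marks mesenchymal glioma stem cells, was at 178 FPKM. The receptors RARG and RXRA were at 28.3 and 17.6, and CRABP2, a carrier of retinoic acid, was at 8.54. CYP26B1, which breaks it down, was at 6.97, and the lowest were RARB (6.82) and ALDH1A2 (3.34). RXRB, RXRG, ALDH1A1, CYP26A1, CYP26C1 and CRABP1 had no row. CDX1, CDX2 and CDX4, activators of central and posterior HOX genes, had none either.

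Most genes that mark the brain regions normally lacking HOX had no row. Of 16 forebrain and midbrain genes 6 had a row and 4 of these (66.7%) reached 1 FPKM, beside 77.5% of listed coding genes and 64.6% of all listed genes. Over the whole list this was 25%, near the 25.6% of the 39 HOX coding genes. DLX1 and DLX2, which act in forebrain interneurons, were at 3.53 and 1.57 FPKM, and LHX2 was at 1.42. OTX1 (0.219) and EMX1 (0.206) were lowest. No row was found for OTX2, EMX2, SIX3, SIX6, EN1, EN2, DLX5, DLX6, NKX2-1 and HESX1.

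**Figure D4:**
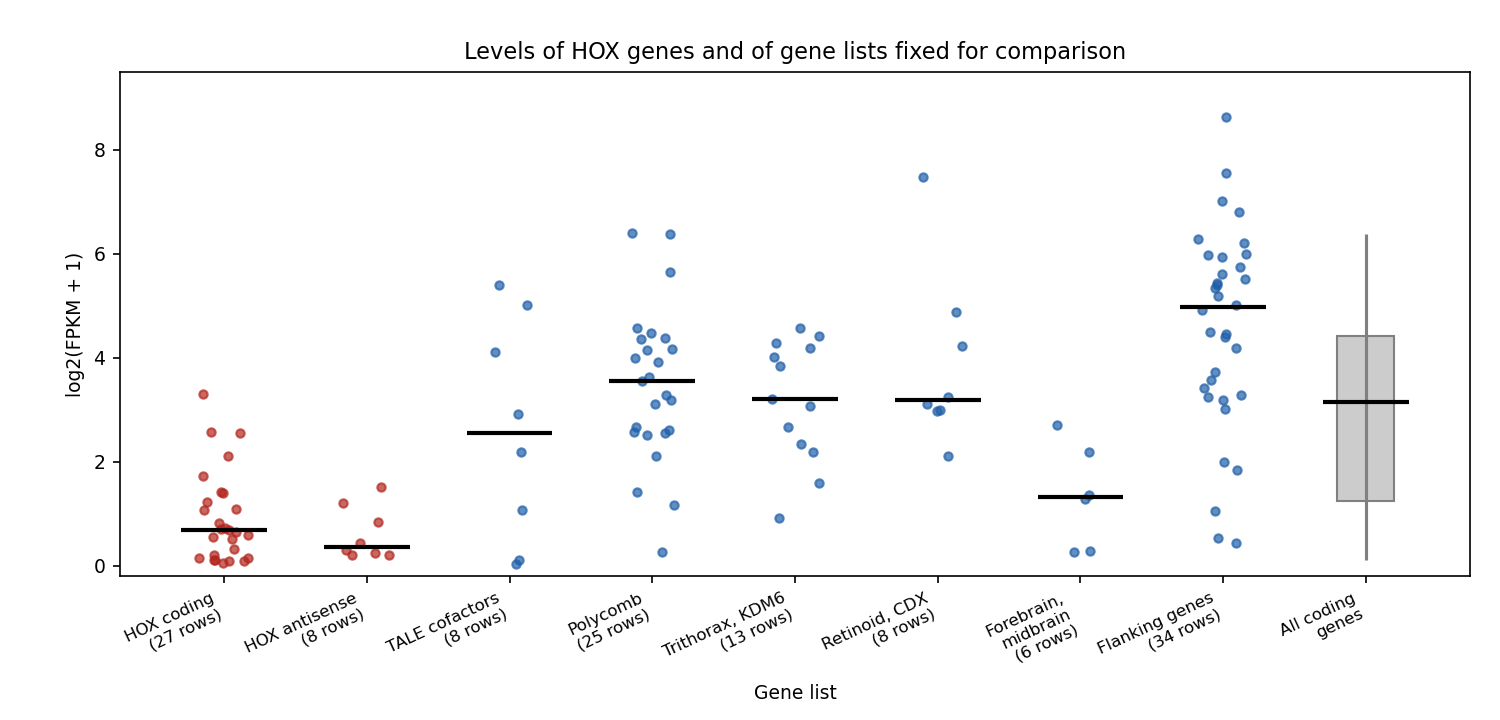
Levels on the log2(FPKM + 1) scale for HOX coding and antisense rows (red) and for 6 gene lists (blue), each dot a gene with a row and each black line a median. The grey box spans the middle quartiles of all listed coding genes and its line the 5th to 95th percentile. The HOX medians lie below the box, the median of the forebrain and midbrain list lies near its lower edge, and the other medians lie inside or above it.

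Genes reported as miR-10 targets were all listed, and 10 of 12 (83.3%) reached 1 FPKM, near the 77.5% of listed coding genes. Their median was 3.85 FPKM, beside 7.82. The tumour suppressor NF1 (22.1 FPKM) and BTRC (5.11) were among the highest. HOXD10, the target through which miR-10b is reported to promote invasion, was at 4.85 FPKM and among the 3 highest HOX genes. miR-10b-5p had 58845 reads, and whether miR-10 acts on any of these transcripts was not tested. HOXA3 (0.0379) was lowest, and HOXB3 was at 2.30.

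Of 11 genes reported as miR-196 targets 9 had a row and 5 of these (55.6%) reached 1 FPKM, beside 77.5% of listed coding genes. Among the HOX members HOXD8 was at 8.83 FPKM, while HOXC8 (0.147), HOXB7 (0.101), HOXA5 (0.0804) and HOXA7 (0.0724) were below 0.2 and HOXB8 and HOXA9 had no row. The 4 members outside the clusters were at 759 (ANXA1), 102 (HMGA1), 84.1 (NFKBIA) and 56.5 FPKM (HMGA2). miR-196a-5p and miR-196b-5p had 96 reads in all. Whether either miRNA acts on these transcripts was not tested.

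The label of the line was checked against marker genes. All 5 markers of mesenchymal glioblastoma were listed, from CHI3L1 at 24.3 FPKM to VIM at 2420. Of 6 astroglial markers 3 reached 1 FPKM, with GJA1 at 143 but GFAP at 0.331 and no row for S100B and AQP4. Of 5 neural progenitor markers NES (1.38) alone reached 1 FPKM, and SOX2, OLIG2 and PROM1 had no row. Fibroblast markers reached 1 FPKM in 4 of 5, led by COL1A2 at 535. Endothelial markers (1 of 4, KDR at 3.29) and neuronal markers (1 of 4, SNAP25 at 16.3) mostly did not, and no immune marker of 4 did. Of all listed coding genes 77.5% reached 1 FPKM. What part cells of another type could have in the HOX levels was not tested.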

How the data were processed

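Untreated U87MG cells gave 1 small RNA library and 1 mRNA library. miRNA and piRNA values are raw read counts, per the file headers, and gene values are FPKM, given by the authors per Ensembl gene. Named without a role in the submitters' processing notes are cutadapt, hg19 and GRCh37. Not given in the sources used here are the aligner, the counter, the FPKM program, the annotation and the rule for shared reads. A length column in the gene file was not used. It held a value for 26 of the 27 HOX coding rows and for 101 of the 7069 listed non-coding rows. Depth was 11785001 miRNA reads and 27299683 piRNA reads; for FPKM the depth is unknown and no interval is given.

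Members were found by symbol or name. Other lists were matched by Ensembl identifier, symbol and older symbol; 34 of the 35 member rows were in the gene name table. Gene order came from RefSeq on GRCh38.p14, for names and order only. For HOXC4, with 2 rows, the higher value was used in counts of genes, and both rows in sums and medians. Shares and ratios of counts have exact Clopper-Pearson 95% intervals (SciPy 1.17.1, pandas 2.3.3). The pseudocount was 1, the thresholds were 1 FPKM and 10 reads, and the alternatives were other thresholds, pseudocounts, filters, scales and totals. The member rules and the interval were tested on simulated data. All HOX coding genes at 1 FPKM or more, the 3 next below and every miRNA arm were named, and from other lists the 4 highest, the 2 lowest and those with no row; a few items under these rules are not reported here, and other names, such as HOTAIRM1, were picked with their values known. The members and lists were chosen with earlier results of these data known.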

Additional observations from a re-analysis of the deposited data

How the results depend on the processing

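Among the lists used here, counts at 1 FPKM or more moved mainly for HOX genes, many of which lie near that limit. HOX coding genes numbered 10 at 1 FPKM, 16 at 0.5, 5 at 2 and 1 at 5 FPKM. They numbered 17 after rescaling so that coding genes alone make up the total. Of all listed coding genes 77.5% reached 1 FPKM, and 85.1% reached 1 after rescaling. Their shares at the other thresholds were not computed, so the HOX shift was not compared with that of other low genes. HOX antisense RNAs numbered 2 at 1 FPKM and 0 at 2 and at 5 FPKM. Forebrain and midbrain genes numbered 4, with 2 at 2 FPKM and 1 at 5, and reported miR-10 targets 10, with 4 at 5 FPKM. The counts of cofactor, Polycomb, Trithorax, retinoid, miR-196 target and flanking genes stayed within 1.5 times under every threshold and the rescaling.

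The HOX median of log2(FPKM + 1) was 0.69, and it was 0.17 with unlisted genes at 0 and 0.78 over rows at 0.1 FPKM or more. With a pseudocount of 0.1 it was -0.49. HOXD remained the highest cluster: counting rows at 1 FPKM or more, HOXD held 70.6%, HOXB 21.5%, HOXC 4.29% and HOXA 3.59%, and without HOXD8 51.5%, 27.04%, 10.3% and 11.1%. By position, rows at 1 FPKM or more gave posterior genes 40.5%, central genes 36.2% and anterior genes 23.3%, and without HOXD8 48.4%, 22.4% and 29.2%, so central genes led only over all rows. The cluster miRNAs held 0.648% of the miRNA reads, 1.57% without miR-21-5p in the total, 0.195% of miRNA and piRNA reads together and 0.643% with the more abundant arm only. Summing both arms gave a miR-10b to miR-10a ratio of 3.48, a near-fixed outcome since the 5p arm holds nearly all reads, and could not change that of miR-196, which has no 3p row. With 1 library of each kind no replicate could be left out. No paired analysis was possible because there are no groups to compare.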
